A study of Homo sapiens with 12 samples.

Results

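The genes described here encode the chaperones, folding enzymes, translocation channel and degradation machinery of the endoplasmic reticulum (ER), with the stress sensors that control them. They were the 39 named genes found by symbol among the 57704 genes of the count table, and 38 of them passed the filter on low counts. They were measured in HEK293 cells (CRL-1573), an established human embryonic kidney line, which in both groups stably carried a reporter with an intronic sequence, DARP and EGFP. One group received pooled siRNAs against SUPT4H1, a subunit of the elongation factor DSIF that acts with RNA polymerase II, and the other received scrambled siRNA, both at 100 nM for 72 hours. There were 6 separately transfected wells per group, all seeded from a shared culture, and p-values therefore cover only the variation among transfections of this reporter line. Each library was made from 200 ng of RNA with QuantSeq FWD, which reads the 3′ ends of polyadenylated transcripts, after ERCC RNA standards had been added to lysates of 1000000 cells. ERCC mix 2 went into all SUPT4H1 siRNA lysates and mix 1 into all scrambled siRNA lysates.

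As background, proteins entering the ER pass through the SEC61 channel, are bound by the HSP70 chaperone BiP and its helpers, receive N-linked sugars that are read by the lectins calnexin and calreticulin, and gain disulfide bonds from the protein disulfide isomerases. Proteins that do not fold are drawn back to the cytosol and degraded, largely through the SEL1L and SYVN1 ubiquitin ligase complex. Unfolded proteins activate the sensors IRE1 (ERN1), ATF6 and PERK, and the transcription factors XBP1 and ATF6 then act on promoters of chaperone genes that carry the ER stress response element.

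That element has the letters CCAAT, then 9 bases of any kind, then CCACG, and it is shown here because members that carry it moved in different directions relative to other transcripts. On the spike-in scale none of them rose, and PDIA6 and XBP1 fell. It was searched on both strands, with no mismatch, in RefSeq promoters (GRCh38.p14, 250 bases before to 50 after each start), which were found for 37 of the 39 genes. It stood in 7 of these 37, against 25 of all 27305 genes with a promoter (0.0916%). Of the 9710 tested genes with a promoter, 15 held it (0.154%). Because the element is known from promoters of chaperone genes, this count is not a test of the members. The sites read as follows, from 5′ to 3′ on the strand named, with the fixed letters in capitals.
HSPA5 (chr9:125241391-125241409, minus strand): CCAATcggcggcctCCACG
HSP90B1 farther from the start (chr12:103930216-103930234, plus strand): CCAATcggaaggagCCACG
HSP90B1 nearer the start (chr12:103930321-103930339, minus strand): CCAATcgcgccgcaCCACG
CRELD2 (chr22:49918554-49918572, minus strand): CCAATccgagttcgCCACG
CALR (chr19:12938384-12938402, minus strand): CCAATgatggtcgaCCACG
CANX (chr5:179698778-179698796, plus strand): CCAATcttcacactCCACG
PDIA6 (chr2:10812853-10812871, minus strand): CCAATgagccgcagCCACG
XBP1 (chr22:28800603-28800621, minus strand): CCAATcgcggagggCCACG

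A second form, ERSE-II, has ATTGG, then 1 base, then CCACG. It stood in 3 of the 37 promoters, against 19 of 27305 (0.0696%), and HYOU1 held it in 2 places. A match says only that these letters are present.
HYOU1 farther from the start (chr11:119057380-119057390, plus strand): ATTGGaCCACG
HYOU1 nearer the start (chr11:119057274-119057284, plus strand): ATTGGaCCACG
SDF2L1 (chr22:21642114-21642124, minus strand): ATTGGtCCACG
HERPUD1 (chr16:56932025-56932035, plus strand): ATTGGgCCACG

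Libraries held 6591194 to 11366971 endogenous counts with SUPT4H1 siRNA and 7337033 to 20269171 with scrambled siRNA. SUPT4H1 itself was at 17.7, 21.1 and 23.2 CPM (counts scaled to 1000000 endogenous counts; lowest, median and highest library of 6, an order kept for all levels below) with SUPT4H1 siRNA, against 175, 180 and 198 CPM with scrambled siRNA. This is a log2 fold change of −3.14 (SE 0.08, adjusted p = 3.62e-17). The HEK293 marker list summed to 918 to 1070 CPM with SUPT4H1 siRNA and 1230 to 1760 CPM with scrambled siRNA. NEFL supplied nearly all of it and fell in relative abundance, while NEFM, INA and PAX2 each stayed under 6 CPM. LIN28B, the other marker of that list, rose, at 42.9 to 63.3 CPM with SUPT4H1 siRNA and 33.1 to 46.1 CPM with scrambled siRNA. The 10 markers of blood, endothelial, liver and fibroblast cells together reached 6.18 to 10.6 CPM with SUPT4H1 siRNA and 6.83 to 11.5 CPM with scrambled siRNA, and PTPRC, CDH5 and HBB had no count. Most of this came from COL1A1 (2.95 to 6.6 against 4.24 to 8.75 CPM) and COL3A1 (1.76 to 3.65 against 0.778 to 1.89 CPM). COL3A1 rose in relative abundance. SUPT4H1 siRNA replicate 6 and scrambled siRNA replicate 2 stood apart from their groups in many genes, and RNA integrity numbers were 9.6 to 10 with SUPT4H1 siRNA and 9.9 to 10 with scrambled siRNA.

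CPM, scaled by the trimmed mean of M values (TMM), give abundance relative to other transcripts. On that scale 19 of the 38 tested ER genes rose with SUPT4H1 siRNA, against 20.3% of all 13820 genes tested, and 2 fell, against 19.8%. The other 17 were not called at an adjusted p of 0.05. The median log2 fold change of the 38 was 0.33, against 0.00 over all genes. For 14 of the ER genes the ranges of the groups were fully separate, against 20.2% of all genes, and 13 of these 14 were higher in all SUPT4H1 siRNA libraries. Together the 39 genes took 0.547% to 0.599% of endogenous counts with SUPT4H1 siRNA and 0.400% to 0.455% with scrambled siRNA. Rises were modest, between 1.22-fold and 2.11-fold. HYOU1, SDF2L1, MANF and PDIA4 passed a test for a change of more than 1.5-fold, 10.5% of the 38 against 2.16% of all genes. Scaled to the ERCC standards instead, no ER gene rose, as set out after the gene groups.

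**Figure D1:**
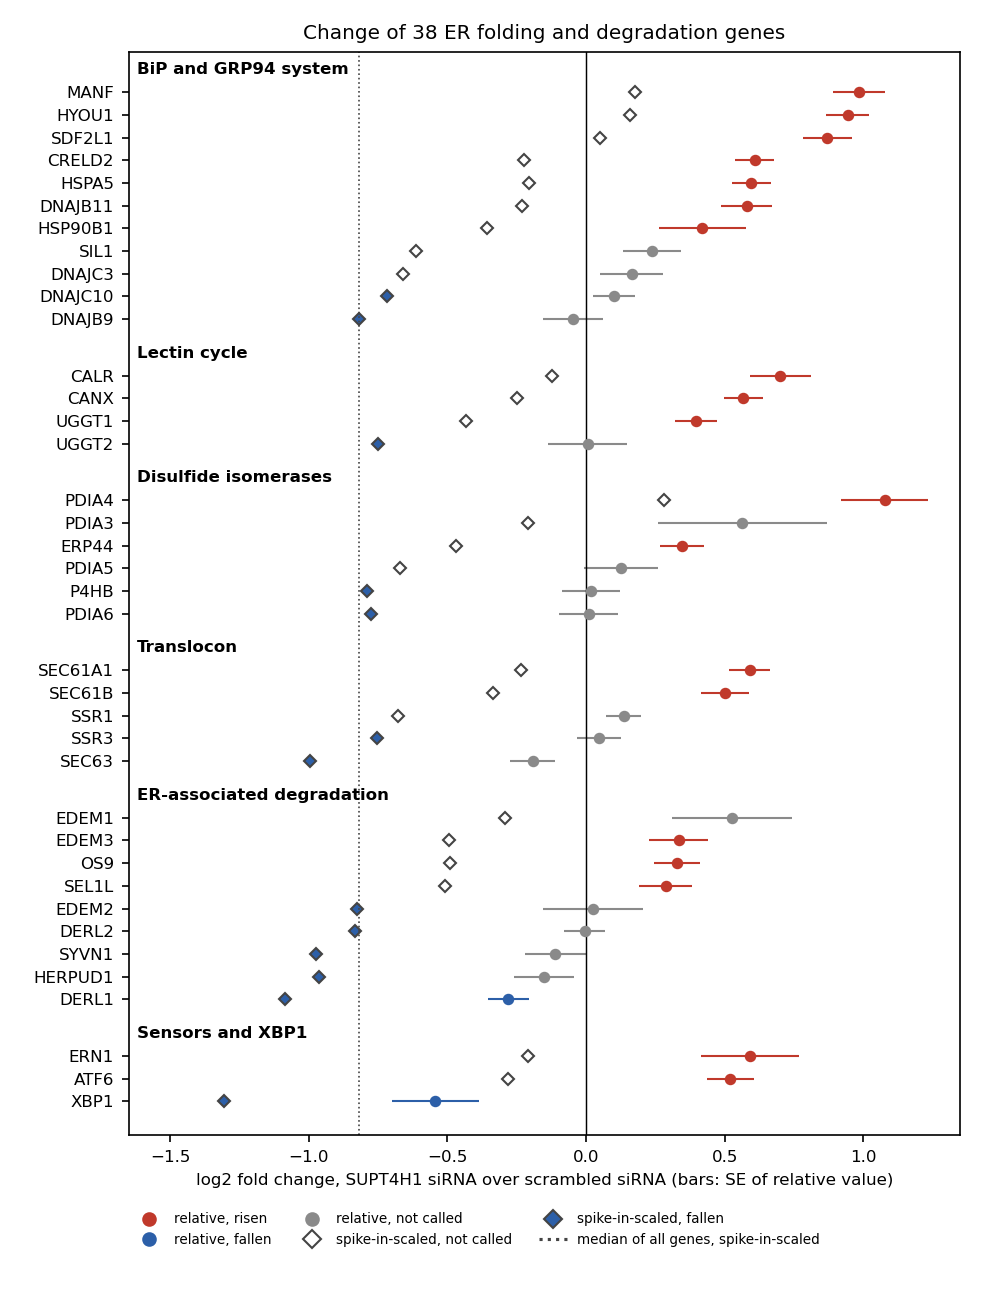
Log2 fold change of the 38 tested ER genes, SUPT4H1 siRNA over scrambled siRNA, by role. Circles are changes relative to other transcripts with their SE and diamonds are spike-in-scaled changes; 19 circles rose and 2 fell, whereas no diamond rose and 13 fell, and the dotted line marks the spike-in-scaled median of all genes at −0.82.

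In the BiP and GRP94 system 7 of 11 genes rose in relative abundance and none fell, against 20.3% and 19.8% of all genes. On the spike-in scale 2 of the 11 fell, DNAJB9 and DNAJC10, and none rose, against 59% and 0.304% of all genes. The median relative log2 fold change of the 11 was 0.58. HSPA5, which encodes BiP (chr9:125234853-125241330, minus strand), was at 488, 512 and 565 CPM with SUPT4H1 siRNA, against 314, 338 and 372 CPM with scrambled siRNA. Every SUPT4H1 siRNA library lay above every scrambled one, and the log2 fold change was 0.60 (SE 0.07, adjusted p = 1.32e-06). HYOU1, an HSP70-like protein that exchanges nucleotide on BiP (chr11:119044189-119057202, minus strand), had 113, 123 and 145 CPM with SUPT4H1 siRNA, against 59.5, 64.9 and 71.7 CPM with scrambled siRNA. Its log2 fold change was 0.94 (SE 0.08, adjusted p = 8.13e-09), again with no overlap. SIL1, the other nucleotide exchange factor of BiP, was not called at 0.24 (SE 0.10, adjusted p = 0.0734), although it passed without SUPT4H1 siRNA replicate 2 (0.28, adjusted p = 0.0431) or scrambled siRNA replicate 6 (0.29, adjusted p = 0.0343). It was at 43.9, 51.0 and 61.5 CPM with SUPT4H1 siRNA against 34.0, 45.2 and 52.3 CPM with scrambled siRNA.

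The promoters of HSPA5 and HYOU1 are printed to show how the elements sit in the members of this group with the highest median level with SUPT4H1 siRNA and the smallest adjusted p. Both run from 250 bases before the RefSeq start to 50 after it on the gene's strand, with the element's fixed letters in capitals. In HYOU1 they appear as the reverse complement, CGTGG and then CCAAT.
HSPA5 (chr9:125241294-125241593, minus strand): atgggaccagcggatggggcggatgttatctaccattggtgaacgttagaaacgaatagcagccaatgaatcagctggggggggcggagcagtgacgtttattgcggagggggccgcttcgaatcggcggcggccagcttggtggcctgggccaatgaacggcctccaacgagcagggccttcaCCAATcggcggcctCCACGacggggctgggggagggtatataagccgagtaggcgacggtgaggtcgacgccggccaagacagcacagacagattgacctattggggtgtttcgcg
HYOU1 (chr11:119057156-119057455, minus strand): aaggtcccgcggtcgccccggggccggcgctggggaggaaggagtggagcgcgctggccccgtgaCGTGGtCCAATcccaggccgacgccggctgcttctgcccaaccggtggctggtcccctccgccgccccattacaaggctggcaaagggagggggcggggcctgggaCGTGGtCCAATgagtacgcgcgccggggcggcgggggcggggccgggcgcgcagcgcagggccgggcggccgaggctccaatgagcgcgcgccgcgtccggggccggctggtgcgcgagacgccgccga

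SDF2L1, which joins DNAJB11 in a BiP-bound complex (chr22:21642261-21644298, plus strand), was at 179, 222 and 232 CPM with SUPT4H1 siRNA, against 103, 116 and 130 CPM with scrambled siRNA. Its log2 fold change of 0.87 (SE 0.09, adjusted p = 1.63e-07) was larger than that of its partner. DNAJB11, a J-domain co-chaperone that hands substrates to BiP (chr3:186567403-186585800, plus strand), had 65.5, 86.7 and 95.1 CPM with SUPT4H1 siRNA, against 51.0, 54.1 and 67.8 CPM with scrambled siRNA, a log2 fold change of 0.58 (SE 0.09, adjusted p = 4.14e-05). SUPT4H1 siRNA replicate 6 was its lowest library and the only one to overlap the scrambled range. The remaining J-domain genes were not called: DNAJB9 had a log2 fold change of −0.05 (adjusted p = 0.766), DNAJC3 0.16 (adjusted p = 0.264) and DNAJC10 0.10 (adjusted p = 0.311). Levels of DNAJB9 ran from 23.1 to 32.6 CPM with SUPT4H1 siRNA and from 24.9 to 36.4 CPM with scrambled siRNA.

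MANF, a small ER protein that binds BiP and can be secreted (chr3:51385047-51389397, plus strand), had the largest relative rise of the BiP group. It was at 79.5, 106 and 125 CPM with SUPT4H1 siRNA, against 46.1, 51.5 and 58.6 CPM with scrambled siRNA, a log2 fold change of 0.98 (SE 0.09, adjusted p = 7.84e-08). CRELD2, an ER protein with disulfide-exchange motifs (chr22:49918167-49927540, plus strand), varied little between libraries, at 76.4, 79.1 and 81.8 CPM with SUPT4H1 siRNA, against 47.4, 51.0 and 57.5 CPM with scrambled siRNA. Its log2 fold change was 0.61 (SE 0.07, adjusted p = 1.15e-06), and neither gene's groups overlapped.

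HSP90B1, which encodes the HSP90 chaperone GRP94 (chr12:103930107-103953645, plus strand), rose by the smallest margin in the BiP group. It had 407, 472 and 750 CPM with SUPT4H1 siRNA, against 295, 371 and 493 CPM with scrambled siRNA, so the groups overlapped in 3 SUPT4H1 siRNA libraries. The log2 fold change was 0.42 (SE 0.16, adjusted p = 0.0453). The highest value belonged to SUPT4H1 siRNA replicate 6, and without that library the change was 0.25 (adjusted p = 0.119). The call was also lost without any of 6 other libraries (SUPT4H1 siRNA replicates 2 and 5, scrambled siRNA replicates 1, 4, 5 and 6), and over the 22 alternatives other than the 1.5-fold minimum change the adjusted p ran from 0.0162 to 0.184.

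**Figure D2:**
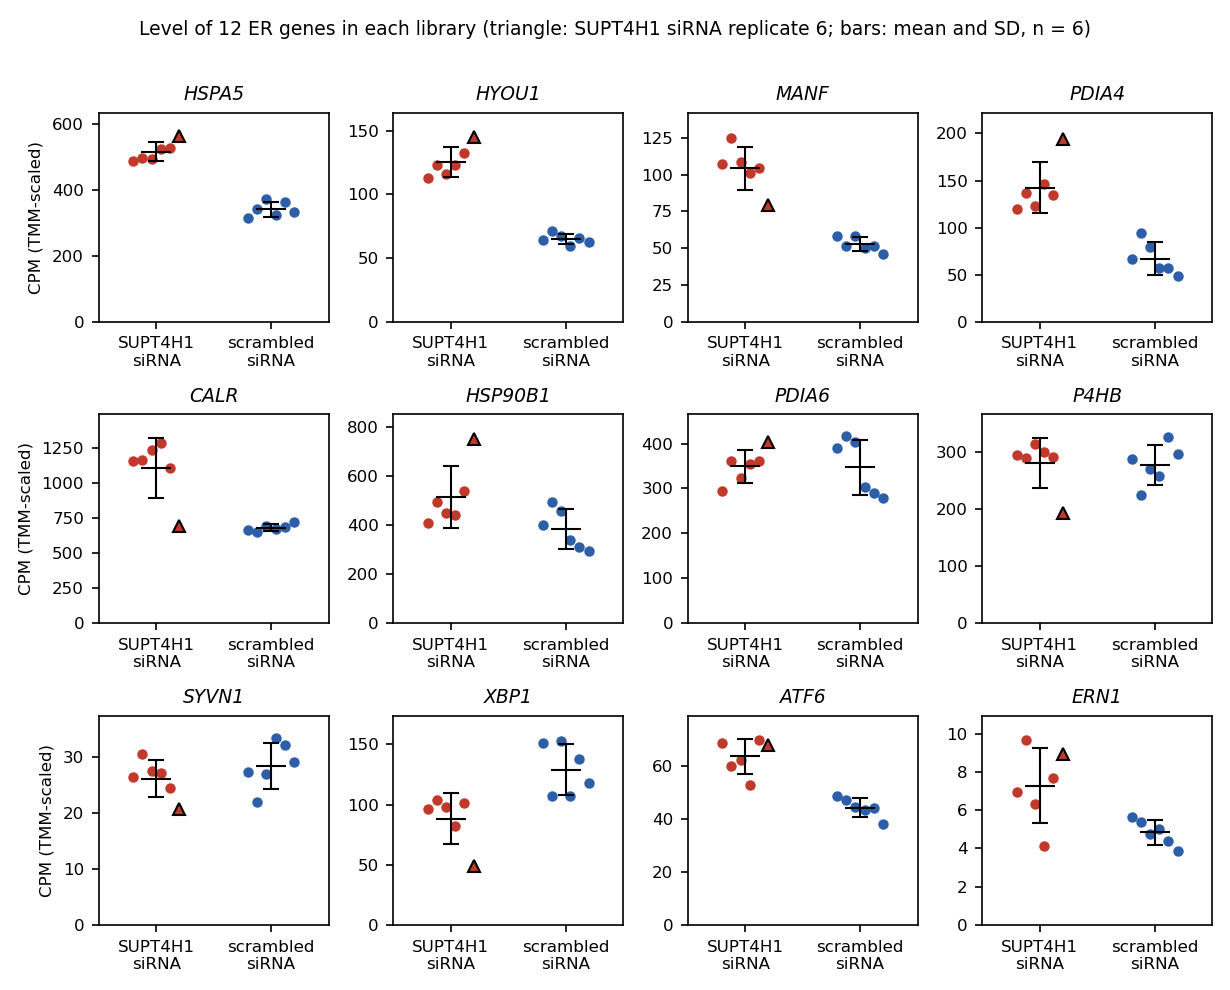
TMM-scaled CPM of 12 ER genes in each library, SUPT4H1 siRNA at left and scrambled siRNA at right, with mean and SD (n = 6). HSPA5, HYOU1, MANF, PDIA4 and ATF6 separate without overlap, PDIA6 and P4HB do not, and SUPT4H1 siRNA replicate 6 (triangle) lies far from its group for PDIA4, CALR, P4HB and XBP1.

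In the lectin cycle 3 of 4 genes rose relative to other transcripts and none fell, against 20.3% and 19.8% of all genes. On the spike-in scale 1 of the 4 fell, UGGT2, and none rose, against 59% and 0.304% of all genes. CALR, the soluble lectin calreticulin (chr19:12938578-12944489, plus strand), had the highest CPM of the 39, on a scale that needs no length correction because only 3′ ends were counted. It had 692, 1159 and 1285 CPM with SUPT4H1 siRNA, against 649, 679 and 719 CPM with scrambled siRNA, a log2 fold change of 0.70 (SE 0.11, adjusted p = 3.63e-05). In 5 of 6 SUPT4H1 siRNA libraries it lay above every scrambled library, and replicate 6 lay inside the scrambled range. CANX, its membrane-bound counterpart calnexin (chr5:179678628-179730925, plus strand), had 343, 362 and 407 CPM with SUPT4H1 siRNA, against 224, 249 and 265 CPM with scrambled siRNA, with no overlap and a log2 fold change of 0.57 (SE 0.07, adjusted p = 2.19e-06).

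UGGT1 re-glucosylates misfolded glycoproteins so that the lectins bind them again (chr2:128091200-128195677, plus strand). It was at 41.6, 44.2 and 47.3 CPM with SUPT4H1 siRNA, against 32.0, 32.8 and 35.8 CPM with scrambled siRNA, a log2 fold change of 0.40 (SE 0.08, adjusted p = 3.2e-04) without overlap. Its paralog UGGT2 was not called, at 0.01 (SE 0.14, adjusted p = 0.978), and its levels of 12.9, 17.3 and 24.1 CPM with SUPT4H1 siRNA enclosed the 14.3, 17.0 and 23.1 CPM with scrambled siRNA. The change of one paralog was not tested against that of the other.

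Among the disulfide isomerases PDIA4 and ERP44 rose in relative abundance, and 4 were not called. That is 2 of 6 tested genes risen and none fallen, against 20.3% and 19.8% of all genes. On the spike-in scale 2 of the 6 fell, P4HB and PDIA6, and none rose, against 59% and 0.304% of all genes. TXNDC5 had at most 1 count in any library and was not tested. Its exons overlap those of BLOC1S5-TXNDC5 on the same strand, which had no count, so the level of TXNDC5 is uncertain. PDIA4, also known as ERp72 (chr7:149003062-149028641, minus strand), had the largest relative rise of all 38 genes. It was at 120, 135 and 194 CPM with SUPT4H1 siRNA, against 48.2, 61.9 and 94.6 CPM with scrambled siRNA, a log2 fold change of 1.08 (SE 0.16, adjusted p = 7.33e-05). Every SUPT4H1 siRNA library exceeded every scrambled one, although SUPT4H1 siRNA replicate 6 and scrambled siRNA replicate 2 were both high, and without SUPT4H1 siRNA replicate 6 the change was 0.94 (adjusted p = 1.75e-04). ERP44, which retrieves proteins that escape to the Golgi (chr9:99979179-100099040, minus strand), had 37.5, 39.3 and 41.8 CPM with SUPT4H1 siRNA, against 28.1, 31.1 and 33.7 CPM with scrambled siRNA, and rose by 0.35 (SE 0.08, adjusted p = 0.00179).

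P4HB, the founding isomerase PDI, and PDIA6 had the highest median CPM of this group and were not called in relative abundance. Both fell on the spike-in scale (P4HB −0.79, adjusted p = 0.0245, and PDIA6 −0.77, adjusted p = 0.0272). P4HB had 194, 293 and 315 CPM with SUPT4H1 siRNA, against 225, 280 and 326 CPM with scrambled siRNA, a log2 fold change of 0.02 (SE 0.11, adjusted p = 0.915). PDIA6 had 294, 357 and 404 CPM with SUPT4H1 siRNA, against 279, 347 and 416 CPM with scrambled siRNA, a log2 fold change of 0.01 (SE 0.10, adjusted p = 0.957). Both groups covered nearly the same range for PDIA6, whose promoter holds the element printed above. PDIA5 was not called at 0.13 (SE 0.13, adjusted p = 0.479) and reached at most 12.1 CPM with SUPT4H1 siRNA and 10.3 CPM with scrambled siRNA.

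PDIA3, or ERp57, works with calnexin and calreticulin and was the most variable ER gene by SE. It had 72.9, 87.4 and 186 CPM with SUPT4H1 siRNA, against 48.9, 56.7 and 123 CPM with scrambled siRNA, and a log2 fold change of 0.56 (SE 0.31, adjusted p = 0.17). The top value of each group came from the library that stood apart, SUPT4H1 siRNA replicate 6 and scrambled siRNA replicate 2. Without SUPT4H1 siRNA replicate 6 the change was 0.28 (adjusted p = 0.433), and without scrambled siRNA replicate 2 it was 0.79 (adjusted p = 0.0323), which passes the threshold.

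Of 5 genes for the translocon, the channel that admits new proteins, 2 rose relative to other transcripts, both for SEC61 subunits. None of the 5 fell, and over all genes 20.3% rose and 19.8% fell. On the spike-in scale 2 of the 5 fell, SEC63 and SSR3, and none rose, against 59% and 0.304% of all genes. SEC61A1, the pore (chr3:128051641-128071683, plus strand), had 131, 144 and 170 CPM with SUPT4H1 siRNA, against 88.7, 98.8 and 100 CPM with scrambled siRNA, a log2 fold change of 0.59 (SE 0.07, adjusted p = 2.55e-06). SEC61B (chr9:99222064-99230615, plus strand) had 130, 158 and 181 CPM with SUPT4H1 siRNA, against 96.4, 115 and 121 CPM with scrambled siRNA, a log2 fold change of 0.50 (SE 0.09, adjusted p = 9.38e-05). Neither gene's groups overlapped.

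SSR1, a subunit of the translocon-associated TRAP complex, also had no overlap, at 194, 207 and 211 CPM with SUPT4H1 siRNA against 183, 186 and 188 CPM with scrambled siRNA. Its log2 fold change of 0.14 (SE 0.06, adjusted p = 0.0882) was not called by edgeR, and passed the threshold with DESeq2 (adjusted p = 0.0132) and with scaling to total counts (adjusted p = 0.0362). SSR3, of the same complex, was not called at 0.05 (SE 0.08, adjusted p = 0.665). SEC63, a J-domain protein that recruits BiP to the channel, was at 123, 136 and 157 CPM with SUPT4H1 siRNA, against 139, 153 and 176 CPM with scrambled siRNA, and was not called at −0.19 (SE 0.08, adjusted p = 0.0671). Without SUPT4H1 siRNA replicate 6 SEC63 passed the threshold at −0.26 (adjusted p = 0.00716), and it also did so without scrambled siRNA replicate 4 (−0.23, adjusted p = 0.0481) or 6 (−0.22, adjusted p = 0.0445).

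In ER-associated degradation 3 of 9 genes rose in relative abundance and DERL1 fell, against 20.3% and 19.8% of all genes, with a median log2 fold change of 0.03. On the spike-in scale 5 of the 9 fell and none rose, against 59% and 0.304% of all genes. SEL1L, the adaptor that delivers substrates to the ligase SYVN1 (chr14:81471549-81533861, minus strand), had 30.8, 38.4 and 44.9 CPM with SUPT4H1 siRNA, against 27.5, 31.7 and 35.0 CPM with scrambled siRNA, a log2 fold change of 0.29 (SE 0.10, adjusted p = 0.0203). The call was lost without SUPT4H1 siRNA replicate 6 (0.21, adjusted p = 0.061) and without scrambled siRNA replicate 4 (0.25, adjusted p = 0.0523). SYVN1 itself had 20.8, 26.8 and 30.6 CPM with SUPT4H1 siRNA, against 22.0, 28.2 and 33.3 CPM with scrambled siRNA, and was not called at −0.11 (SE 0.11, adjusted p = 0.451). Its annotated exons overlap those of FAU on the same strand, a gene with up to 45253 counts where SYVN1 had at most 497, so its level is uncertain.

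OS9, a lectin that passes trimmed glycoproteins to SEL1L (chr12:57693955-57721557, plus strand), had 53.1, 63.5 and 68.7 CPM with SUPT4H1 siRNA, against 43.8, 50.1 and 55.8 CPM with scrambled siRNA, a log2 fold change of 0.33 (SE 0.08, adjusted p = 0.00363). EDEM3, of the EDEM proteins that promote mannose trimming (chr1:184690231-184754913, minus strand), had 32.1, 38.2 and 48.2 CPM with SUPT4H1 siRNA, against 26.1, 30.5 and 35.5 CPM with scrambled siRNA, a log2 fold change of 0.33 (SE 0.11, adjusted p = 0.016). Without SUPT4H1 siRNA replicate 6 EDEM3 missed the threshold (0.24, adjusted p = 0.0509). EDEM1 had the lowest level of the tested ER genes, with at most 40 counts in a library, and was not called at 0.53 (SE 0.22, adjusted p = 0.0583). EDEM1 passed without SUPT4H1 siRNA replicate 6 (0.58, adjusted p = 0.0403), while EDEM2 was at 0.03 (SE 0.18, adjusted p = 0.927).

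DERL1, a rhomboid-like membrane protein of the exit channel, had 87.0, 91.2 and 107 CPM with SUPT4H1 siRNA, against 103, 111 and 122 CPM with scrambled siRNA. It fell by 0.28 on the log2 scale (SE 0.07, adjusted p = 0.00449), and 5 of 6 SUPT4H1 siRNA libraries lay below every scrambled one. Its relative DERL2 was at 48.6, 54.3 and 58.6 CPM with SUPT4H1 siRNA, against 47.9, 54.5 and 57.8 CPM with scrambled siRNA, and was not called at −0.01 (SE 0.07, adjusted p = 0.964). HERPUD1, a membrane scaffold of the ligase complex, was not called at −0.15 (SE 0.11, adjusted p = 0.28), with 26.0, 33.3 and 39.3 CPM with SUPT4H1 siRNA against 33.6, 35.5 and 42.0 CPM with scrambled siRNA.

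The sensors ATF6 and ERN1 rose in relative abundance, though not on the spike-in scale, and XBP1 fell on both. ATF6, a membrane-bound factor that is cleaved in the Golgi under stress (chr1:161766294-161964070, plus strand), had 52.8, 65.1 and 69.9 CPM with SUPT4H1 siRNA, against 38.1, 44.2 and 48.8 CPM with scrambled siRNA. Its log2 fold change was 0.52 (SE 0.09, adjusted p = 6.05e-05), and the ranges were separate. ERN1, the kinase and nuclease IRE1 (chr17:64039142-64130819, minus strand), had 4.14, 7.32 and 9.64 CPM with SUPT4H1 siRNA, against 3.85, 4.88 and 5.64 CPM with scrambled siRNA, a log2 fold change of 0.59 (SE 0.18, adjusted p = 0.0113). Of its SUPT4H1 siRNA libraries 5 exceeded every scrambled one and replicate 4 did not.

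XBP1, whose transcript IRE1 splices to make an active factor (chr22:28794555-28800597, minus strand), had 48.8, 97.1 and 104 CPM with SUPT4H1 siRNA, against 107, 128 and 153 CPM with scrambled siRNA. It fell by 0.54 on the log2 scale (SE 0.16, adjusted p = 0.0123), and every SUPT4H1 siRNA library lay below every scrambled one. SUPT4H1 siRNA replicate 6 was the lowest, and without it the change was −0.45 (adjusted p = 4.88e-04). Reads from 3′ ends do not separate the spliced from the unspliced transcript, so the splicing of XBP1 was not measured. Its promoter is printed because it carries the same element as HSPA5 while the transcript moved the other way in relative abundance.
XBP1 (chr22:28800520-28800819, minus strand): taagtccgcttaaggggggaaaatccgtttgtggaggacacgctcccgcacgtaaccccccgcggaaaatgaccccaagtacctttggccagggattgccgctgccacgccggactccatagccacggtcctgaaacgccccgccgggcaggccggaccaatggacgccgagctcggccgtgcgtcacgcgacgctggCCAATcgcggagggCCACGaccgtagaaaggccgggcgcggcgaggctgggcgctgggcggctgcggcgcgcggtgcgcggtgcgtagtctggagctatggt

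Of the 7 genes with an exact ER stress response element, HSPA5, HSP90B1, CRELD2, CALR and CANX rose in relative abundance, XBP1 fell and PDIA6 was not called. Of the 3 with ERSE-II, HYOU1 and SDF2L1 rose and HERPUD1 was not called. Among the 27 genes with a promoter but no exact match to either form, 12 rose, none fell and 14 were not called, with TXNDC5 untested. Over all genes 20.3% rose and 19.8% fell in relative abundance. On the spike-in scale no gene of these classes rose, against 0.304% of all genes. Sites with a mismatch or outside the searched bases were not looked for. MANF and PDIA4, the members with the largest rises, belong to these 27. A further motif, TGACGTGG, stood in the promoters of HYOU1, where it overlaps an ERSE-II, and of DNAJC10, TXNDC5 and SSR3, against 253 of all 27305 genes (0.927%). The elements of the ER genes lay between 225 bases before the start in CALR and the start itself in CANX.

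**Figure D3:**
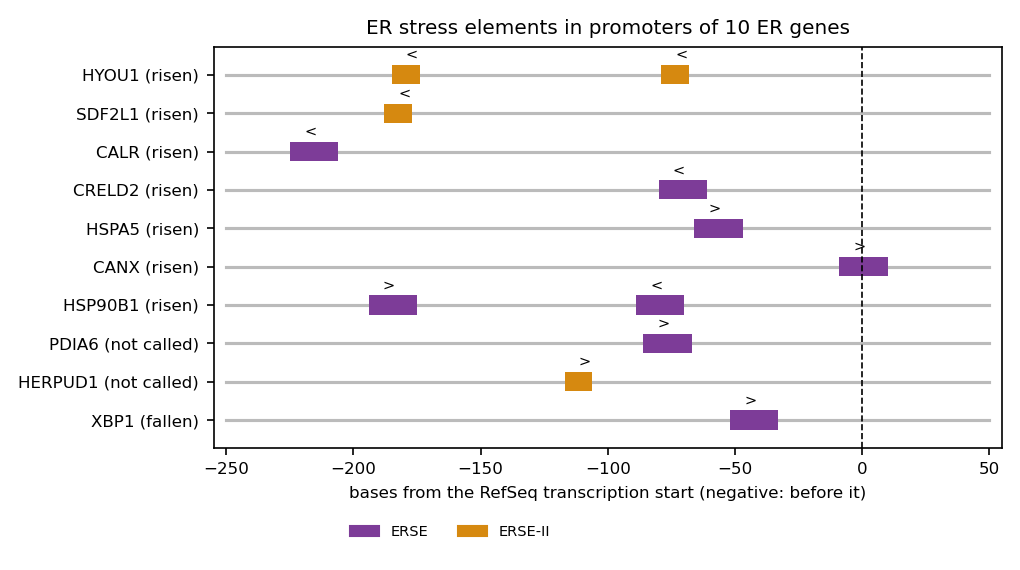
Position of exact ER stress response elements (ERSE) and ERSE-II in the RefSeq promoters of 10 ER genes, in bases from the start, with the relative call of each gene; the earliest start is drawn for CANX. Arrows give the strand relative to the gene; XBP1, which fell, and HSPA5, which rose, both hold an ERSE within 66 bases before the start.

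Scaled to the ERCC standards, no ER gene rose. Endogenous counts per count of the standards present at equal amounts in both mixes had a log2 value of 8.23 ± 0.57 with SUPT4H1 siRNA and 9.16 ± 0.32 with scrambled siRNA (SD, n = 6 each), a difference of −0.93 (exact two-sided permutation test, p = 0.013, smallest possible 0.00216). Spike-in scaling moved the median log2 fold change of all genes to −0.82 and that of the 38 ER genes to −0.49. Mix and group coincide, so an error in a mix and a change in RNA per lysate cannot be told apart, nor can fewer cells be told from less RNA per cell.

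On that scale 13 of the 38 ER genes fell, against 59% of all genes, and none rose, against 0.304% (edgeR, none at an unadjusted p under 0.05 and none by DESeq2). The 19 genes that rose in relative abundance had spike-in-scaled log2 fold changes between −0.51 and 0.28, with adjusted p values of at least 0.148. PDIA4 at 0.28, MANF at 0.18, HYOU1 at 0.16 and SDF2L1 at 0.05 were the only ones above 0. XBP1 had the lowest value, −1.31 (SE 0.32, adjusted p = 5.09e-04), followed by DERL1 at −1.09 (adjusted p = 0.00312). The other genes that fell were SEC63, SYVN1, HERPUD1, DERL2, EDEM2, DNAJB9, DNAJC10, P4HB, PDIA6, SSR3 and UGGT2, which were not called in relative abundance. Leaving out SUPT4H1 siRNA replicate 5, whose ratio was the highest of its group at 9.27, brought the number that fell to 30. Over all genes 88.2% then fell. With any 1 of the other 11 libraries left out, 5 to 14 ER genes and 40.7% to 62.0% of all genes fell. With standards of ERCC subgroup C in place of B, only XBP1 among the ER genes fell (−0.998, adjusted p = 0.0236), against 16.1% of all genes, DERL1 was no longer called (adjusted p = 0.0771), and the endogenous ratio differed by −0.64 (exact permutation test, p = 0.0519).

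**Figure D4:**
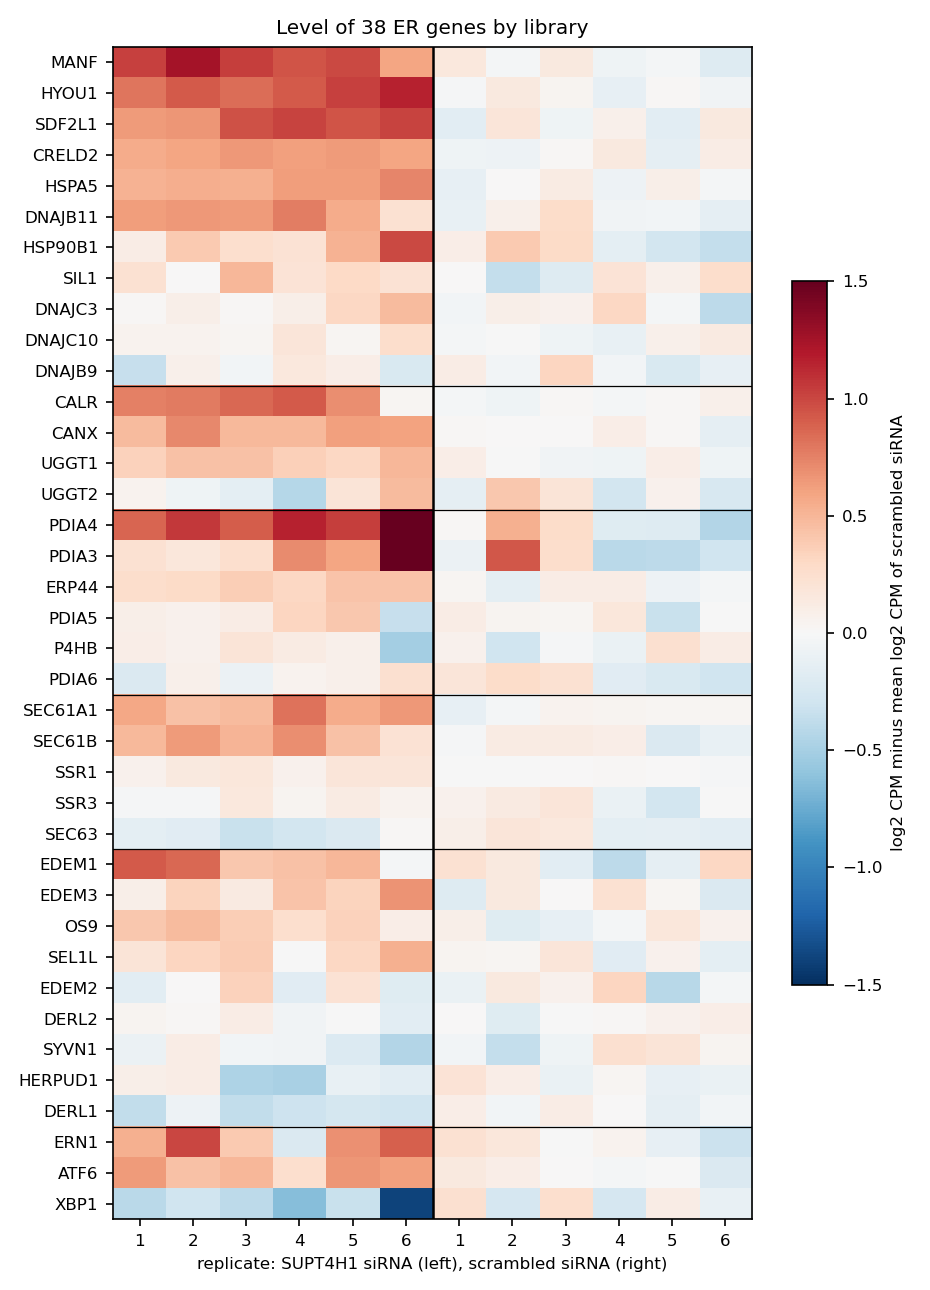
Log2 CPM of the 38 ER genes in each library minus the mean log2 CPM of the scrambled siRNA libraries, by role, with SUPT4H1 siRNA replicates 1 to 6 at left and scrambled siRNA replicates 1 to 6 at right. Relative rises of MANF, HYOU1, SDF2L1 and PDIA4 recur in all 6 SUPT4H1 siRNA columns, and replicate 6 departs from its group in CALR, PDIA3 and XBP1; on the spike-in scale these rises were not called.

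The library that departed most was SUPT4H1 siRNA replicate 6, which was the highest of its group for 15 and the lowest for 12 of the 38 ER genes. Over all genes it was highest for 27.2% and lowest for 32.3%. It was high in PDIA3, PDIA4 and HSP90B1 and low in CALR, P4HB, XBP1 and DNAJB11. Without it 17 ER genes rose and 3 fell, against 19.4% and 22.6% of all genes. Its RNA integrity number was 9.8. SUPT4H1 siRNA replicate 5 had a lower one, 9.6, and was the highest of its group for 2 and the lowest for 2 ER genes. With the RNA integrity number as a covariate 15 ER genes rose, against 16.8% of all genes. HSP90B1, SEL1L, EDEM3 and ERN1 then lost their calls (adjusted p from 0.0698 to 0.184).

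The strand setting of the authors' counting is not given in the sources used here, and the exons of 19 of the 39 genes overlap a gene on the opposite strand. Partners with counts near or above those of the ER gene were THAP5 for DNAJB9 (2642 against 619 counts in the highest library), MIS12 for DERL2 (880 against 976), RUVBL1 for SEC61A1 (1901 against 1942) and MRPL49 for SYVN1 (668 against 497). Values of these 4 genes are uncertain for that reason. On the same strand SEC22A, with up to 409 counts, overlaps PDIA5, with up to 192.

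Beyond the 38, genes of the same pathways were described from 5 further lists. Of their 184 tested genes 49 rose in relative abundance (26.6%, against the 20.3% of all genes) and 32 fell (17.4%, against the 19.8%), with a median log2 fold change of 0.05. On the spike-in scale 2 of the 184 rose and 109 fell (59.2%, against the 59% of all genes), with a median of −0.79. Folding enzymes had 13 of 34 risen and 9 fallen, N-glycosylation 9 of 39 and 2, translocation 8 of 34 and 4, further degradation factors 9 of 44 and 7, and regulators of the unfolded protein response 10 of 33 and 10.

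Among the folding enzymes the collagen-handling prolyl isomerase FKBP10 (0.54, adjusted p = 4.06e-05) and FKBP7 (0.87, adjusted p = 1.26e-04) rose, and the membrane J-domain protein DNAJC1 (−0.68, adjusted p = 1.69e-06) and CNPY3, a GRP94 partner (−0.37, adjusted p = 0.00355), fell. In N-glycosylation the largest change was in MLEC, or malectin, a lectin for newly glucosylated glycans. It had 163, 194 and 261 CPM with SUPT4H1 siRNA, against 59.5, 67.8 and 71.0 CPM with scrambled siRNA, a relative log2 fold change of 1.58 (adjusted p = 9.72e-11), and it also rose on the spike-in scale (0.77, adjusted p = 0.03). PRKCSH, the beta subunit of glucosidase II that feeds the lectin cycle, rose by 0.66 (adjusted p = 5.59e-05), while the oligosaccharyltransferase subunit TUSC3 (−0.26, adjusted p = 0.0146) and DPM3, of dolichol-phosphate-mannose synthase (−0.40, adjusted p = 0.0279), fell.

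In translocation TMCO1, a membrane protein found at translocons, had 166, 190 and 207 CPM with SUPT4H1 siRNA, against 35.8, 41.4 and 45.8 CPM with scrambled siRNA. Its relative log2 fold change of 2.21 (adjusted p = 7.21e-14) held on the spike-in scale (1.40, adjusted p = 2.23e-04). SRP68, of the signal recognition particle, rose by 0.44 (adjusted p = 4.3e-05). SEC61A2, the paralog of the pore gene SEC61A1, was at 11.98, 15.9 and 19.6 CPM with SUPT4H1 siRNA, against 33.2, 37.7 and 42.6 CPM with scrambled siRNA, and fell by 1.32 (adjusted p = 2.22e-08). CAMLG, of the tail-anchor insertion receptor, fell by 0.40 (adjusted p = 1.21e-04).

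Of the further degradation factors FAM8A1, a partner of SYVN1, rose by 1.04 (adjusted p = 9.75e-08) and AUP1, which recruits a ubiquitin-conjugating enzyme, by 0.53 (adjusted p = 1.37e-05). UBL4A, of the BAG6 complex, fell by 0.82 (adjusted p = 2.16e-07) and the VCP cofactor FAF1 by 0.47 (adjusted p = 1.35e-04). Regulators moved both ways. EIF2AK3, the sensor PERK, had 16.6, 18.1 and 20.5 CPM with SUPT4H1 siRNA, against 7.78, 9.48 and 11.1 CPM with scrambled siRNA, and rose by 0.94 (adjusted p = 1.87e-06), as did the membrane-bound factor CREB3L2 (0.97, adjusted p = 1.46e-07). ATF4, the factor translated when PERK is active, was at 371, 456 and 487 CPM with SUPT4H1 siRNA, against 990.3, 1108 and 1164 CPM with scrambled siRNA, and fell by 1.30 (adjusted p = 3.76e-10). DDIT3, or CHOP, a target of ATF4, fell by 1.06 (adjusted p = 5.49e-08). All 3 sensor genes of the unfolded protein response (ATF6, ERN1 and EIF2AK3) were higher in relative abundance with SUPT4H1 siRNA, whereas XBP1, ATF4 and DDIT3 were lower, and on the spike-in scale none of the 3 sensor genes was called.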

How the data were processed

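The authors deposited raw whole-number counts per gene, ERCC standard and reporter row for 12 QuantSeq FWD libraries, 6 with SUPT4H1 siRNA and 6 with scrambled siRNA. FastQC 0.11.5, STAR, MultiQC and R 3.4.3 were used with GRCh38.p10, per the submitters' processing notes. How reads were assigned to genes (tool, annotation, strand) is not given in the sources used here. Symbols came from the table, gene positions and overlaps from GENCODE 29 (GRCh38), and promoter sequences from RefSeq (GRCh38.p14).

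The quasi-likelihood test of edgeR 4.0.16 (robust, R 4.3.3) was run on all 12 libraries with no covariate. TMM factors came from endogenous genes, and filterByExpr kept 13820 genes. P-values were adjusted over these by the Benjamini-Hochberg method and called under 0.05, and the SE is the log2 fold change divided by the square root of the F statistic. Spike-in-scaled changes used the sum of 23 ERCC standards of subgroup B per library. Which standard belongs to which subgroup was set from general knowledge. The labels of subgroups C and D were exchanged after the counts did not match their nominal ratios. The alternative with subgroup C is therefore not independent of these counts. Spike-in ratios were compared over all 924 divisions of the libraries. Alternatives were DESeq2 1.42.0, limma-voom (limma 3.58.1), other scalings, filters, RNA integrity, a minimum change, other standards, the replicate number as a block, leaving out each library and, chosen after seeing the data, TMM after the filter. Only the fit of relative changes was tested on simulated counts with known changes.

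The 39 genes, the role groups and the further lists were chosen with earlier results of these data known. All 39 genes are reported, and from each further list the 2 called genes with the smallest adjusted p in each direction. Libraries of a group differed beyond sampling noise in all 30 pairs (chi-square per degree of freedom 4.45 to 34.7). Depth limits precision for genes near the filter, such as EDEM1.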

Additional observations from a re-analysis of the deposited data

Results flagged for a closer look

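Among 78 sets of 6 libraries (38 ER genes and SUPT4H1 in each group), 5 held a library whose gap to the nearest other library exceeded 0.625 of the group's range, and chance gives about 3.9 such sets. In SUPT4H1 siRNA replicate 6, CALR was at 692.2 CPM, where the other 5 libraries of its group had 1102 to 1285 CPM. P4HB was at 193.6 CPM in the same library, against 289 to 315 CPM in the others. PDIA3 there reached 186.4 CPM, where the others had 72.9 to 105 CPM, and PDIA4 reached 194.5 CPM, where the others had 120 to 146 CPM. DERL1 was at 106.6 CPM in SUPT4H1 siRNA replicate 2, where the others had 87.0 to 93.5 CPM. Thus 4 of the 5 flags fell in SUPT4H1 siRNA replicate 6, which was also the extreme library of its group for 27 of 38 ER genes. Without that library CALR changed by 0.78, PDIA4 by 0.94, P4HB by 0.08 and PDIA3 by 0.28 in relative log2 abundance, and CALR and PDIA4 remained called.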

How the results depend on the processing

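In relative abundance 15 of the 19 ER genes that rose, and DERL1, kept their calls in all 22 alternatives other than the minimum change; the exceptions were HSP90B1, SEL1L, EDEM3 and ERN1 among the risen and XBP1 (adjusted p = 0.0526 with no filter, where 1 ER gene fell). HSP90B1 was at an adjusted p of 0.0501 with TMM after the filter. With a minimum change of 1.5-fold, 4 ER genes rose (10.5%) and 0 fell, and 299 of all genes rose (2.16%) and 236 fell (1.71%). Leaving out each library gave 17 to 20 ER genes risen and 2 to 3 fallen, against 18.2% to 19.4% and 17.7% to 22.6% of all genes. The other alternatives gave 15 to 22 risen, against 10.1% to 23.6% of all genes. Scaling to total counts also called SIL1, EDEM1 and SSR1, DESeq2 also called SSR1, and upper-quartile factors SEC63. The cause of these differences was not tested. Values near 0 and not called reversed their sign: UGGT2 (−0.017 with upper-quartile factors, −0.0195 with limma-voom, −0.095 with RNA integrity), P4HB (−0.0083 with upper-quartile factors), PDIA6 (−0.0137 with upper-quartile factors, −0.031 with RNA integrity), EDEM2 (−0.029 with RNA integrity) and DERL2 (0.030 without TMM, 0.000611 with limma-voom, 0.012 with RNA integrity). With 1 library left out the ranges were −0.063 to 0.014 for DERL2, −0.091 to 0.025 for DNAJB9, −0.049 to 0.074 for EDEM2, −0.060 to 0.078 for P4HB, −0.063 to 0.056 for PDIA6, −0.0038 to 0.085 for SSR3 and −0.118 to 0.079 for UGGT2.

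Spike-in-scaled values depended on the standards. With ERCC subgroup C, 1 ER gene fell and 2227 of all genes fell, 68 rose, and the endogenous ratio was −0.6373 (exact p = 0.0519). Uncalled values then turned positive for HSPA5 (0.116), DNAJB11 (0.075), CRELD2 (0.095), CALR (0.187), CANX (0.073), PDIA3 (0.112), SEC61A1 (0.083), ATF6 (0.042) and ERN1 (0.096). With 1 library left out, 5 to 30 ER genes and 5618 to 12189 of all genes fell, 26 to 60 of all genes rose, and the ratio was −1.13 to −0.81. The changes ran from −0.41 to 0.021 for CALR, −0.150 to 0.289 for HYOU1, −0.104 to 0.307 for MANF, −0.460 to 0.049 for PDIA3 and −0.258 to 0.219 for SDF2L1.

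Libraries with the same replicate number did not vary together (correlations of −0.341 to 0.076), so the numbers were not taken as pairs. With the replicate block 18 ER genes rose and 2 fell in relative abundance, against 17.6% and 17.2% of all genes. On the spike-in scale 16 ER genes fell and 0 rose, against 67.6% and 0.246% of all genes, and SDF2L1 was at −0.033.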

Other observations

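Of 8 tested genes outside the 39 with an exact ER stress response element in the promoter, 2 rose and 2 fell in relative abundance, which is near the 20.3% and 19.8% of all genes. The risen genes were SERP1, which protects nascent membrane proteins at the translocon (0.23, adjusted p = 0.0312), and TRIM5 (0.50, adjusted p = 0.00889). EIF2A (−0.48, adjusted p = 8.62e-04) and TMEM120A (−0.72, adjusted p = 9.63e-07) fell, and ALG12, ERO1B, FICD and ZNF17 were not called. SERP1 and EIF2A, neighbours on opposite strands, hold the same element (chr3:150546710-150546728), so the 8 genes are not 8 separate elements. The ALG12 promoter shares its element with CRELD2, its neighbour on the opposite strand: ALG12 averaged 12.3 CPM with SUPT4H1 siRNA and 13.3 CPM with scrambled siRNA (−0.11, adjusted p = 0.535), while CRELD2 rose. Of 10 tested genes with ERSE-II outside the 39, GYS1 (0.95, adjusted p = 4.59e-05) and NUCB1 (0.29, adjusted p = 0.0215) rose and PLS3 and SHCBP1 fell. GYS1 shares its element with RUVBL2, which was not called (adjusted p = 0.495). These genes were named after their values were seen.

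The data are 3′-end counts from a single reporter line and 1 time point. They measure neither protein levels, XBP1 splicing nor ATF6 cleavage. Relative and spike-in-scaled changes differ by a shift that the standards set, and mix and group coincide.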
